A study of Mus musculus with 22 samples.

Results

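Rlf (ENSMUSG00000049878) and its relative Zfp292 (ENSMUSG00000039967) are 2 of 37991 genes in the RNA-seq table, and 2 of 21208 protein-coding genes with a region measured by whole-genome bisulphite sequencing (WGBS). Rlf was taken because it is the mutated gene, and Zfp292 because it belongs to the same small family. All mice were of the FVB/NJ Line3 strain and homozygous for a multi-copy GFP transgene under the promoter of human alpha-globin with its HS-40 enhancer, in both genotypes alike. Wild types were Rlf+/+, and mutants were RlfMommeD28/MommeD28, homozygous for an allele induced with the mutagen ENU that the study calls null. The allele was kept by backcrossing to Line3, and embryos came from matings of heterozygotes. WGBS was performed on 2 wild-type and 2 mutant samples of each of 3 tissues: whole E10.5 embryos, all labelled male; E14.5 livers, with replicate 1 male and replicate 2 female; and E18.5 livers, all labelled female. RNA-seq was performed on 3 wild-type and 3 mutant E14.5 livers, with replicates 1 and 2 labelled male and replicate 3 female. Embryonic day (E) counts from the day of the mating plug. H3K4me1 ChIP-seq was not analysed here.

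Rlf and Zfp292 encode large nuclear proteins with widely spaced C2H2 zinc fingers, the small folds with which many transcription factors contact DNA. Rlf was first known as the gene fused to L-myc in lung cancer, and it was later recovered as a modifier of a variegating reporter transgene, one that is active in some cells and silent in others. Promoters of broadly used genes lie in CpG islands that are normally free of methylation, while the shores next to an island vary between tissues and the body of a transcribed gene is usually methylated.

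On NCBIM37 (mm9) with GENCODE vM1, Rlf occupies chr4:120817978-120887689 and Zfp292 chr4:34750362-34830209, both on the minus strand and 86.0 Mb apart. The main Rlf transcript has 8 exons, and its last exon (exon 8) holds 81.1% of its 5754 coding bases. Zfp292 also has 8 exons, and the last one holds 87.5% of its 8094 coding bases. Both genes thus carry most of their coding sequence in 1 long 3′ exon.

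The promoters are printed because methylation there was near 0% in every library. Each is the stretch just upstream of the annotated start, from the RefSeq promoter table of GRCm38.p6, placed on NCBIM37 by a unique exact match and written 5′ to 3′ on the minus strand, with CpGs in capitals. Rlf lies at chr4:120887690-120887939 and Zfp292 at chr4:34830210-34830447.

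Rlf promoter: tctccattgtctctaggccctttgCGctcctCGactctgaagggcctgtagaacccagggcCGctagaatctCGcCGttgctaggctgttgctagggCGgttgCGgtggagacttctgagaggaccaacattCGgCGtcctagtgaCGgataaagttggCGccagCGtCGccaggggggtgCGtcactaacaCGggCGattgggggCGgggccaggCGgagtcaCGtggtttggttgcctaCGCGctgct
Zfp292 promoter: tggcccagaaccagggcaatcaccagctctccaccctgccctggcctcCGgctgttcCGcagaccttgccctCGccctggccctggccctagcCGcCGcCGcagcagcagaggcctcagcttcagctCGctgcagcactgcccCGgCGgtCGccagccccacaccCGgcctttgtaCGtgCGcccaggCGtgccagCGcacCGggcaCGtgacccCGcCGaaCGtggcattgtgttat

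All 21 CpGs of the Rlf stretch and all 20 of the Zfp292 stretch were measured. Over them, methylation ran from 0% to 0.547% across the 12 libraries at Rlf and from 0% to 0.268% at Zfp292. The 300-base promoter windows hold 29 CpGs at Rlf and 30 at Zfp292, and 12.9% and 11.7% of 32851 RefSeq promoters hold as many. On either strand, the Rlf window has 2 matches to the GC box GGGCGG and 1 to CCAAT, letters found in 35.7% and 37.4% of promoters. The Zfp292 window has neither, and neither window has TATAAA, found in 13.6% of promoters. These are matches of letters only.

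Further into each gene, at the inner edge of the downstream CpG island shore, lie the 2 CpGs with the widest difference between genotypes in the Zfp292 shore, which are printed with their surroundings beside the counterpart at Rlf. Both stretches are intronic, are written in the same way, and were delimited after the shore values had been seen. The Rlf stretch is chr4:120886574-120886676 and the Zfp292 stretch chr4:34828984-34829123.

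Rlf shore edge: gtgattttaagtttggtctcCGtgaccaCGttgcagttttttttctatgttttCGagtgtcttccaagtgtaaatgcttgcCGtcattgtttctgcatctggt
Zfp292 shore edge: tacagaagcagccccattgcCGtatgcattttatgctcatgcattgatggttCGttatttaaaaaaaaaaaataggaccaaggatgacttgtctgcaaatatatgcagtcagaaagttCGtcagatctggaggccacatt

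The 3 CpGs of the Zfp292 stretch lie 1107 to 1205 bp from the start. In E10.5 embryos they were methylated at 62.2% and 63.0% in the wild types and at 73.5% and 77.2% in the mutants. In E14.5 liver the wild types had 41.5% and 42.9% and the mutants 50.5% and 47.3%. In E18.5 liver the wild types had 36.1% and 40.5% and the mutants 59.0% and 61.7%. The genotypes did not overlap in any of the 3 tissues, and the mean difference was 13.8 percentage points, from 34 to 205 reads per library.

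The 4 CpGs of the Rlf stretch, 1034 to 1095 bp from the start, were far less methylated. Wild-type and mutant values were 5.22% and 3.57% against 12.1% and 8.82% in E10.5 embryos. They were 1.14% and 1.91% against 4.2% and 2.44% in E14.5 liver, and 1.69% and 1.34% against 2.52% and 3.36% in E18.5 liver. Again every mutant lay above every wild type of its tissue, by 3.09 points on average, from 91 to 287 reads per library. The CpGs of the downstream shore nearest the start, taken by position at 9441 genes, gave this pattern at 4.29% of genes. The opposite pattern was seen at 25 genes. The difference at Zfp292 was above that of 98.7% of these genes and the difference at Rlf above that of 72.4%. The Zfp292 window was picked for its wide difference and those of the other genes were not, so these ranks are not like for like. As the windows were set with values known, no test is given.

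The depth behind the values differed between tissues. Mean WGBS coverage of a CpG was 30.2 to 34.1 reads in E14.5 liver, 16.6 to 17.1 in E18.5 liver and 15.3 to 17.4 in E10.5 embryos, and 0.0412% to 0.0775% of the spiked unmethylated lambda cytosines read as methylated. RNA-seq libraries held 12928313 to 14621004 counts. The E18.5 mutant replicate 1 stood apart: its median methylation over 17004 gene bodies was 76.5%, against 72.0% to 72.5% in the other E18.5 livers. The E14.5 wild-type replicate 1 was low, at 65.7% against 68.5% to 69.5% in the other E14.5 livers. Read depth over the member gene bodies, relative to the genome, was 0.784 to 0.957 in wild types and 0.810 to 0.968 in mutants for Rlf, and 0.890 to 1.13 in wild types and 0.908 to 1.13 in mutants for Zfp292, so the genotypes overlapped in coverage.

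The first question was whether the mutated gene and its relative differed in RNA between genotypes. Rlf RNA did not differ detectably. The wild-type livers had 70.0, 72.3 and 68.9 CPM (counts scaled to a common library size with TMM factors) and the mutant livers 76.3, 79.8 and 67.6 CPM. The third mutant lay below all wild types and the others lay above them, so the groups overlapped. The means were 70.4 ± 1.73 CPM and 74.6 ± 6.28 CPM (SD, n = 3), a log2 fold change of 0.08 with a standard error of 0.07 (edgeR quasi-likelihood test, adjusted p = 0.646). The 95% interval of the fold ran from 0.952 to 1.18. Since Rlf RNA was not lower in the mutants, its count does not check the genotype labels. The deposited counts give no view of the mutated base itself.

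Zfp292 RNA was higher in each mutant liver than in any wild-type liver. The wild types had 45.9, 53.7 and 53.1 CPM and the mutants 70.1, 61.4 and 62.6 CPM, from 602 to 813 counts and 851 to 903 counts. All 3 mutants lay above all 3 wild types. The genotypes did not overlap in either direction at 20.3% of the 14183 genes tested, 1490 of them with the mutants above. The means of 50.9 ± 4.33 CPM and 64.7 ± 4.70 CPM (SD, n = 3) gave a log2 fold change of 0.34 with a standard error of 0.08, a fold of 1.27 with a 95% interval of 1.12 to 1.43. This missed the threshold of 0.05 (edgeR quasi-likelihood test, adjusted p = 0.0600). edgeR called 197 genes, 1.39% of those tested and 0.698% in the direction of higher in mutants, and Zfp292 ranked 254 by p. With replicate number as a block, Zfp292 passed (edgeR adjusted p = 0.0303), beside 3.24% of all genes. DESeq2 also placed it past the threshold (adjusted p = 0.0286). The share of all genes that DESeq2 called is not given here, so that call has no background beside it.

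Markers of the cell types in liver are given beside the Zfp292 value. The platelet chemokine gene Pf4 and 2 neutrophil genes, Elane and S100a8, passed the test, and no hepatoblast, erythroid, macrophage, endothelial or mesenchymal marker did. By the mean, 8 of 9 hepatoblast markers were higher in mutants, as were 7011 of 14183 tested genes. The 9 markers summed to 55738 to 66278 CPM in wild types and 68228 to 79131 CPM in mutants. Most of each sum came from the plasma protein genes Alb (edgeR adjusted p = 0.151) and Afp (edgeR adjusted p = 0.354). Their wild-type means were 26652 and 29804 CPM. All 4 megakaryocyte markers were higher, with sums of 457 to 478 CPM in wild types and 541 to 605 CPM in mutants. Of 9 erythroid markers 8 were lower, with overlapping sums of 28724 to 53375 CPM and 35926 to 38942 CPM. Neutrophil markers were lower for 3 of 4 genes, at 486 to 677 CPM against 455 to 542 CPM. Macrophage markers were higher for 4 of 6 genes, at 478 to 500 CPM against 510 to 528 CPM. Vcam1 was the largest part of these sums, with wild-type and mutant means of 223 and 257 CPM. Emr1 (57.4 against 48.1 CPM) and C1qb (58.6 against 55.5 CPM) were lower in mutants. Endothelial markers were higher for 5 of 5 genes, at 250 to 275 CPM against 274 to 325 CPM. Mesenchymal markers were higher for 4 of 5, at 587 to 746 CPM against 632 to 915 CPM. The part of all these markers in the Zfp292 value was not tested. In whole livers, fewer cells of a type and less RNA per cell cannot be told apart.

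Zfp654, a further relative, had 23.2, 22.0 and 23.6 CPM in wild types and 27.7, 27.1 and 25.6 CPM in mutants. The groups did not overlap, but the log2 fold change of 0.22 with a standard error of 0.08 did not pass (edgeR adjusted p = 0.217). Per kilobase of annotated exon, Rlf was the most abundant of the 3 in wild-type liver at 10.1 ± 0.248 CPM per kb (SD, n = 3). Zfp292 at 5.10 ± 0.434 and Zfp654 at 4.84 CPM per kb came next, with overlapping ranges of 4.60 to 5.38 and 4.64 to 4.99. In mutants the levels were 10.7, 6.48 and 5.65 CPM per kb in the same order. By CPM, Rlf stood above 77.3% of tested genes and Zfp292 above 71.7%.

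**Figure D1:**
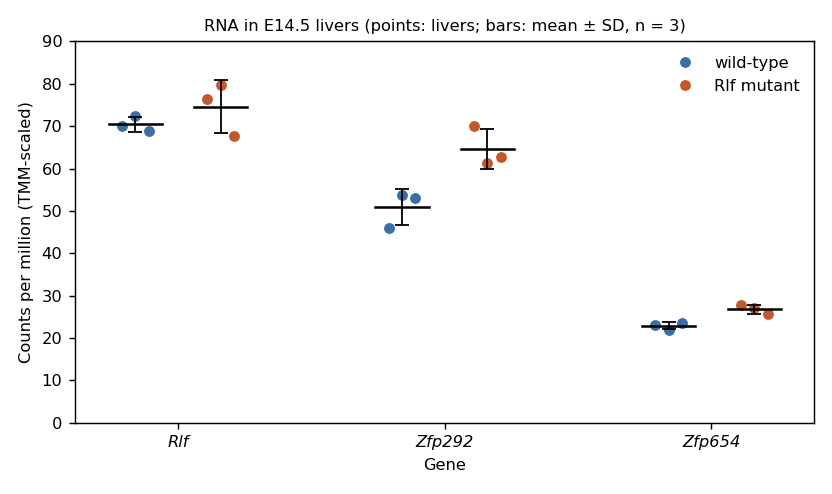
RNA of Rlf, Zfp292 and the further relative Zfp654 in E14.5 liver, in TMM-scaled CPM (vertical axis). Each point is 1 of 3 livers per genotype and bars are the mean with its SD. Rlf overlaps between genotypes, while every Zfp292 value of the mutants (61.4 to 70.1 CPM) lies above the wild types (45.9 to 53.7 CPM).

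The pattern over livers differed between the members, with a Pearson r of 0.468 between their log2 CPM over the 6 livers, which share 2 genotypes and 2 sexes. Of 9727 genes with a mean of at least 10 CPM, those most like Rlf were Hes1, a Notch-responsive repressor (r = 0.992), Scap, the sterol-sensing escort of SREBP factors (r = 0.990), Grhpr (r = 0.983), Tmem223 (r = 0.981) and Git2 (r = 0.980). Those most like Zfp292 were Col25a1 (r = 0.998), Fam193a (r = 0.997), Plekha1 (r = 0.995), Grlf1 (r = 0.992) and Nbeal1 (r = 0.992). These values, each the top of a ranking over only 6 livers, are given as a description.

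Proteins that the study lists as pulled down with RLF from HEK293T cells, a human kidney line, include readers of methylated histone H3 such as the HP1 proteins, the demethylase Kdm1a, and DNA repair and replication factors. The list used here holds 49 mouse genes, and entries with no clear mouse gene were left out. Nbn was added to it because the study detected the protein, NBS1, by Western blot. Of these 49 genes, 47 were found in the table and 44 were tested. None was called by edgeR or by DESeq2, and 3 had an unadjusted p under 0.05 in edgeR, as did 14.6% of all tested genes. Named after their values were seen, these were Lrwd1 (log2 fold change -0.19), Samd1 (-0.18) and Gtf3c5 (-0.17). In all, 15 were higher and 29 lower in mutants, with a median log2 fold change of -0.03 against -0.0017 over all tested genes.

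The mutant allele lies in Rlf and is carried with the DNA around it, so genes within 500 kb of Rlf were examined. Genes within 500 kb of Zfp292, 86.0 Mb away, were examined in the same way. Of 32 annotated genes around Rlf 8 were tested, none was called by edgeR or by DESeq2, and 2 of the 8 had an unadjusted p under 0.05, beside the 14.6% of all tested genes. These were Nfyc, a subunit of the CCAAT-binding factor NF-Y (log2 fold change -0.18), and the synaptic gene Rims3 (-0.77), which were named after their values were seen. Rims3 had few reads, with 23, 18 and 28 counts in wild types and 9, 17 and 13 in mutants (edgeR adjusted p = 0.279). All 8 tested genes around Rlf lie at lower coordinates, so no gene on the other side was examined. The nearest tested neighbour of Rlf was Zmpste24, the protease that matures lamin A, 47132 bp away. It had 90.9, 91.0 and 92.9 CPM in wild types and 86.7, 87.1 and 92.0 CPM in mutants (log2 fold change -0.05, edgeR adjusted p = 0.743). Of 25 genes around Zfp292 10 were tested, and none was called by either tool or had an unadjusted p under 0.05 in edgeR. Its nearest tested neighbours were 1810030N24Rik on one side (log2 fold change -0.13, edgeR adjusted p = 0.751) and Gm12362 on the other (-0.06, edgeR adjusted p = 0.908). Median log2 fold changes were -0.14 around Rlf and -0.06 around Zfp292.

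The second question was whether methylation of the members differed between genotypes. Each gene was divided into the region within 1 kb of the start, the upstream and downstream shores from 1 to 3 kb, and the gene body from 3 kb onward. A region's level is the share of its reads that were methylated, in percent, and a CpG was used where each of the 12 libraries had 6 reads or more. Zfp292 had higher methylation in mutants at its downstream shore and gene body, and Rlf at its gene body. The other 5 regions did not pass. Mutants were called higher at 9.29% of all downstream shores and 21% of all gene bodies, and both Zfp292 calls depended on single libraries.

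The Zfp292 downstream shore (12 CpGs, chr4:34827209-34829208) showed the larger difference. In E10.5 embryos the wild types had 81.9% and 85.0% and the mutants 87.5% and 86.1%. In E14.5 liver the values were 63.5% and 63.3% against 70.4% and 68.0%, and in E18.5 liver 72.5% and 63.6% against 81.0% and 76.4%. Both mutants lay above both wild types in every tissue, as they did at 8.83% of 18243 genes. The group means with their SD (n = 2) were 83.4% ± 2.24 and 86.8% ± 0.988 in E10.5 embryos, 63.4% ± 0.118 and 69.2% ± 1.70 in E14.5 liver, and 68.1% ± 6.30 and 78.7% ± 3.27 in E18.5 liver. Over the 3 tissues the difference was 6.58 points (edgeR adjusted p = 0.0183). Permuting genotype within tissue, an exact two-sided test, gave p = 0.00926, the smallest that its 216 arrangements allow, and 13 member regions were tested in this way. Any region with both mutants above both wild types in every tissue gets this p, so it restates that separation. Mutants were called higher at this kind of region for 9.29% of genes, the median difference over genes was 1.72 points, and Zfp292 lay above 94.8% of them. With each library left out, 1095 to 2203 of these 18243 shores were called, with the lowest count without the E14.5 wild-type replicate 1.

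The difference was uneven along that shore. From 1500 to 1999 bp (4 CpGs), wild-type and mutant means were 92.9% and 90.6% in E10.5 embryos and 79.8% and 79.9% in E14.5 liver. In E18.5 liver they were 81.1% and 89.5%. Of the 12 CpGs of the shore, 11 had a higher mean over the tissues in mutants and 7 were higher in the mutant mean of every tissue. Their median difference was 5.64 points. Single CpGs ranged from -4.22 points, 1787 bp from the start, to 17.3 points, 1205 bp from the start. The next largest, 16.7 points, was 1139 bp from the start, within the same stretch printed above. The call depended on single libraries: without the E18.5 mutant replicate 1 the difference was 5.81 points (edgeR adjusted p = 0.0575), beside a median of 1.16 points over these shores, and without the E18.5 wild-type replicate 2 it was 5.10 points (edgeR adjusted p = 0.0731). A minimum of 10 reads gave 5.22 points (edgeR adjusted p = 0.0543).

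The Rlf downstream shore (9 CpGs, chr4:120884689-120886688) was less methylated and did not pass. Its values were 29.6% and 33.5% in wild types against 41.9% and 35.5% in mutants for E10.5 embryos, 23.8% and 18.2% against 21% and 23.2% for E14.5 liver, and 22.0% and 21.1% against 28.1% and 22.8% for E18.5 liver. The mutants lay above the wild types in E10.5 embryos and E18.5 liver, and the genotypes overlapped in E14.5 liver; 36.8% and 34.1% of these shores had the mutants above in E10.5 embryos and E18.5 liver. Over the 3 tissues the difference was 4.06 points (edgeR adjusted p = 0.221, exact permutation p = 0.0556). With the CpGs covered in the 4 E14.5 livers alone, the E14.5 difference was -2.30 points in place of 1.08. Of the 9 CpGs, 7 had a higher mean in mutants and 2 did so in every tissue. The shore levels pool reads, so they also follow the read depth of each CpG. In E10.5 embryos the mutant mean was higher by 17.1 and 13.9 points at the CpGs 1067 and 1095 bp from the start. It was lower at the CpGs 1034, 1186, 1201, 1682 and 2201 bp from the start. In E14.5 liver only the CpG at 1034 bp was lower in mutants.

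**Figure D2:**
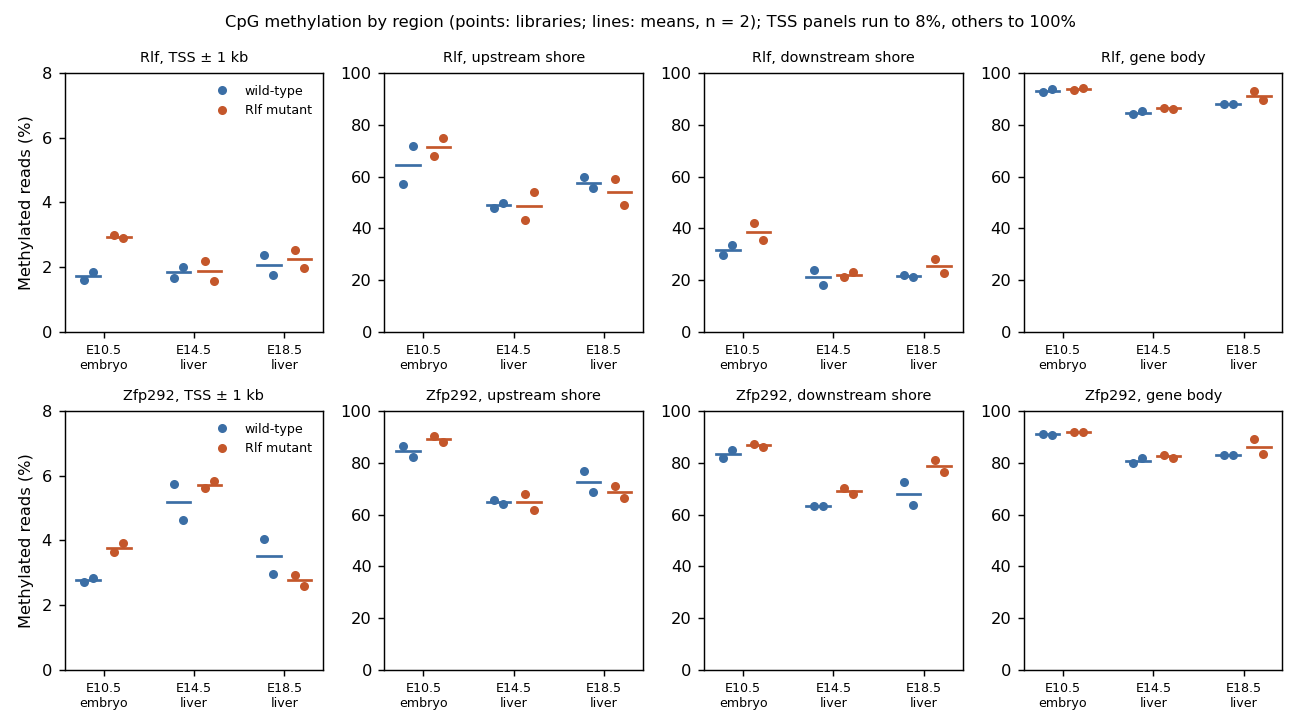
Methylation of Rlf and Zfp292 in 4 regions (percent of methylated reads, vertical axis), by tissue and genotype, with 1 point per library, 2 libraries a group and a line at each mean; panels of the starts run to 8% and the others to 100%. The Zfp292 downstream shore separates the genotypes in all 3 tissues, whereas the regions around both starts stay under 6% in every library.

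The gene bodies were highly methylated and rose slightly in mutants. The Rlf body (240 CpGs) had 92.6% and 93.8% in wild types and 93.6% and 94.4% in mutants for E10.5 embryos, which overlapped. In E14.5 liver it had 84.0% and 85.5% against 86.4% and 86.3%, and in E18.5 liver 88.0% and 88.2% against 93.1% and 89.6%, with both mutants above both wild types in each, as at 41% and 36.4% of gene bodies. The difference over the 3 tissues was 1.88 points (edgeR adjusted p = 0.00152, exact permutation p = 0.0185). Without the E18.5 mutant replicate 1 it was 1.29 points (edgeR adjusted p = 0.0228). Without the E14.5 wild-type replicate 1 the E14.5 difference fitted on the 4 E14.5 livers was 0.78 points at the Rlf body and 0.94 points at the Zfp292 body, and the median over all bodies there went from 1.57 to 0.34 points.

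The Zfp292 body (359 CpGs) had 91.3% and 91.0% against 92.1% and 91.8% in E10.5 embryos, 79.8% and 81.7% against 83.0% and 82.1% in E14.5 liver, and 83.1% and 83.1% against 89.2% and 83.3% in E18.5 liver. The mutants lay above the wild types in all 3 tissues, as at 14.6% of genes, although in E18.5 liver the second mutant exceeded them by little. The difference was 1.89 points (edgeR adjusted p = 0.00957, exact permutation p = 0.00926, the smallest possible and again fixed by the separation). Without the E18.5 mutant replicate 1, the library that stood apart over all gene bodies, it was 0.91 points (edgeR adjusted p = 0.121), and without the E18.5 mutant replicate 2 it was 2.87 points. Mutants were called higher for 21% of gene bodies, with a median difference of 1.47 points over all of them. With each library left out 1454 to 7755 of 17004 bodies were called, the fewest without the E14.5 wild-type replicate 1, and the median was 0.852 points without the E18.5 mutant replicate 1 and 2.1 points without the E18.5 mutant replicate 2. Rlf lay above 64.1% and Zfp292 above 64.3% of genes, so both bodies were near the middle of what gene bodies showed.

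Around the starts and in the upstream shores the genotypes could not be separated. The Rlf start (93 CpGs) had 1.60% and 1.85% in wild types against 2.99% and 2.91% in mutants for E10.5 embryos, 1.67% and 2.0% against 2.20% and 1.56% for E14.5 liver, and 2.37% and 1.76% against 2.52% and 1.96% for E18.5 liver. The mutants lay above the wild types in E10.5 embryos and overlapped them in both livers. Both mutants were above at 34.5% of starts in E10.5 embryos. The difference of 0.48 points over the 3 tissues did not pass (edgeR adjusted p = 0.320, exact permutation p = 0.102). The Zfp292 start (123 CpGs) had 2.71% and 2.85% against 3.65% and 3.92% in E10.5 embryos, 5.76% and 4.63% against 5.61% and 5.83% in E14.5 liver, and 4.05% and 2.98% against 2.95% and 2.58% in E18.5 liver. Mutants lay above in E10.5 embryos and below in E18.5 liver, where 10.4% of starts had both mutants below, and the difference over tissues was 0.26 points (edgeR adjusted p = 0.781), or 0.072 to 0.448 points with each library left out. Mutants were called higher at 5.67% of starts and 5.79% of upstream shores. The 1130 starts called became 694 without the E10.5 wild-type replicate 1, 696 without the E18.5 mutant replicate 1 and 1758 with replicate number as a block. The 1007 upstream shores called became 544 without the E14.5 wild-type replicate 1, and 619, 627 and 636 without the E18.5 mutant replicate 1, the E14.5 mutant replicate 1 and the E10.5 wild-type replicate 1.

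The upstream shores hold few CpGs, and their SDs (n = 2) reached 10.4 points at Rlf and 5.77 points at Zfp292. At Rlf (5 CpGs) the wild types and mutants had 57.1% and 71.8% against 68.0% and 75.0%, 48.0% and 49.8% against 43.0% and 54.1%, and 60.0% and 55.4% against 58.9% and 49.0% in the tissues in the same order, and overlapped in each. At Zfp292 (7 CpGs) they had 86.5% and 82.4% against 90.4% and 88.0%, 65.8% and 63.9% against 67.8% and 61.6%, and 76.9% and 68.7% against 71.1% and 66.4%, and overlapped in both livers. In E10.5 embryos both Zfp292 mutants lay above, as at 32.6% of upstream shores. The differences over the 3 tissues were 0.97 points (edgeR adjusted p = 0.927) and 0.17 points (edgeR adjusted p = 0.981).

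Within single tissues none of the 24 member regions was called by edgeR, beside 1.79% of regions over all kinds and tissues, and 4 of them had an unadjusted p under 0.05, beside 11.1% of all regions. These were the Rlf start in E10.5 embryos, the Rlf body in E18.5 liver, and the Zfp292 downstream shore in E14.5 and E18.5 liver. The share called ran from 0% of starts in E14.5 liver to 14.3% of gene bodies in E10.5 embryos. Leaving out 1 library brought calls at 5 of the 24. Without the E14.5 wild-type replicate 2 both bodies were called in E14.5 liver, as were 48.5% of all bodies in that fit. Without the E18.5 mutant replicate 2 both bodies were called in E18.5 liver, as were 65% of all bodies, and the Zfp292 downstream shore, as were 5.53% of these shores. In these fits the lone sample of a group is assumed to vary like the others. A comparison of 2 against 2 libraries allows an exact permutation p no lower than 0.33. No member region passed the test for a genotype difference that varied with tissue (edgeR interaction, adjusted p of 0.9999 or above).

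The unmethylated block at each start was similar in width in both genotypes, as far as its upstream edge could show. It was taken as the run of CpGs under 10% methylation with gaps of at most 100 bp. In the pooled libraries it spanned 859 bp and 78 CpGs at Rlf, from 316 bp upstream to 541 bp downstream of the start, and 953 bp and 108 CpGs at Zfp292, from 352 bp upstream to 599 bp downstream. Single libraries gave 857 to 999 bp at Rlf and 849 to 1017 bp at Zfp292. The downstream edge was the same in all 12 libraries, because the gap limit set it. From 500 to 999 bp downstream, a window that holds this edge, no library exceeded 3.52% at Rlf or 3.07% at Zfp292. The widths can thus fall short of the block, and a longer block in either genotype could not be seen. Zfp292 has a further CpG-dense element 3 to 5 kb upstream, whose 69 CpGs were methylated at 4.08% to 11.8% in the 12 libraries with a genotype difference of 0.15 points, while the same interval at Rlf holds 1 measured CpG. The second annotated Rlf start, inside the gene at position 120861139, has 2 measured CpGs within 1 kb, at 72.2% to 95%, with a genotype difference of -3.13 points. The last exons, which encode most of each protein, were methylated at 88.7% to 96.1% over 56 CpGs at Rlf and 83.8% to 94.1% over 75 CpGs at Zfp292. Their genotype differences over the tissues were 0.96 and 0.12 points. In E10.5 embryos the Zfp292 exon was lower in mutants, at means of 93.7% in wild types and 92.5% in mutants.

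**Figure D3:**
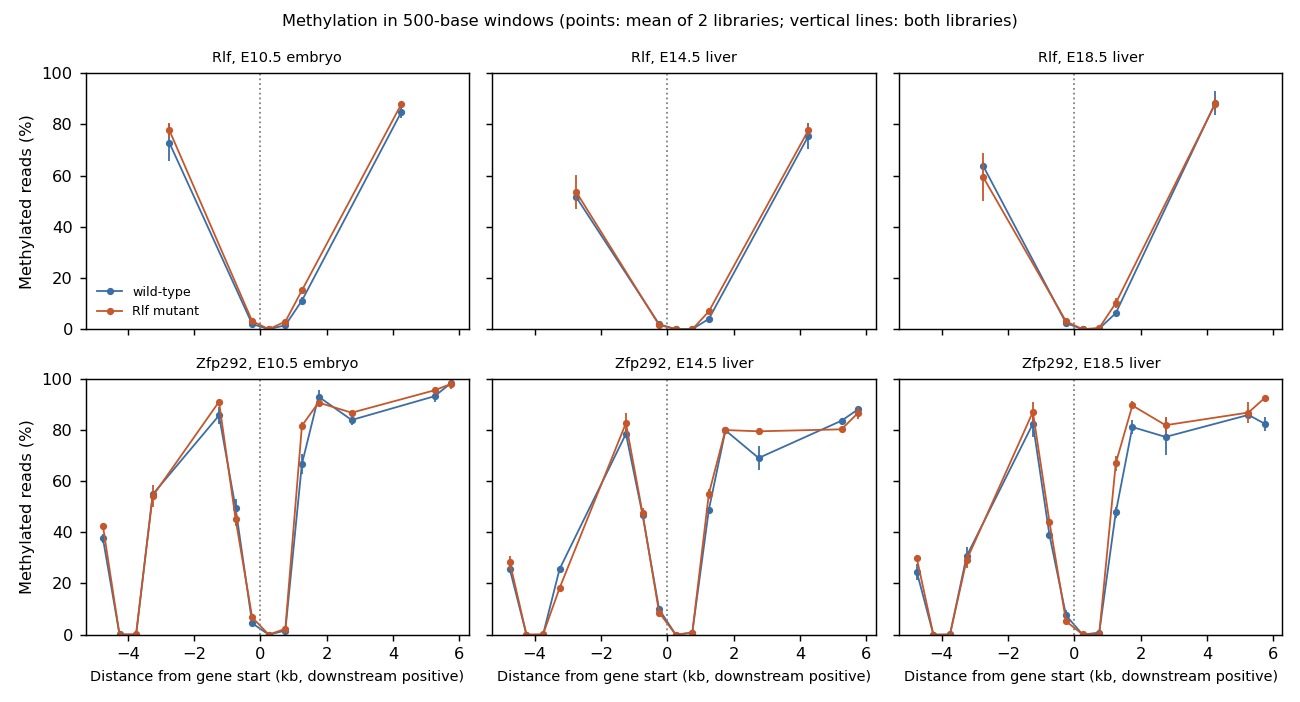
Methylation (percent of methylated reads, vertical axis) in 500-base windows by distance from the annotated start (kb, horizontal axis) at Rlf and Zfp292 in each tissue; points are genotype means of 2 libraries and vertical lines join the 2 libraries. Both starts sit in a block near 0%, and the Zfp292 mutants lie above the wild types in the window centred 1.25 kb downstream in all 3 tissues.

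The third question was how the members' levels varied across tissues, for which tissue and stage change together and cannot be told apart. The E10.5 embryos are labelled male and the E18.5 livers female, while the E14.5 livers hold both sexes. Except at the starts, both genes were less methylated in E14.5 liver than in E10.5 embryos. The differences at Rlf were -19.3 points in the upstream shore (edgeR adjusted p = 2.07e-05), -13.6 points in the downstream shore (edgeR adjusted p = 3.28e-06) and -8.03 points in the body (edgeR adjusted p = 1.3e-46). At Zfp292 they were -22.0 points (edgeR adjusted p = 9.72e-09), -18.8 points (edgeR adjusted p = 8.55e-10) and -9.89 points (edgeR adjusted p = 2.68e-53). Such falls were called at 86.1%, 80.1% and 95% of genes, with median differences of -15.1, -13.5 and -13.8 points, so both bodies fell by less than the median body and both upstream shores by more than the median one. Among males alone, the Rlf body had 84.0% and 86.4% in E14.5 liver against 92.6% to 94.4% in E10.5 embryos, and the Zfp292 body 79.8% and 83.0% against 91.0% to 92.1%.

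From E14.5 to E18.5 liver, both bodies gained methylation, by 4.13 points at Rlf (edgeR adjusted p = 1.75e-09) and 3.01 points at Zfp292 (edgeR adjusted p = 0.000134), as did 78.4% of gene bodies. Among females alone, the Rlf body had 85.5% and 86.3% in E14.5 liver against 88.0% to 93.1% in E18.5 liver, and the Zfp292 body 81.7% and 82.1% against 83.1% to 89.2%. Without the E18.5 mutant replicate 1 the gain of the Zfp292 body was 1.51 points (edgeR adjusted p = 0.0228). The Zfp292 downstream shore gained 7.12 points (edgeR adjusted p = 0.0172), as did 35.3% of these shores, whose 6438 calls became 3743 without the E18.5 mutant replicate 1. The call at Zfp292 was lost without the E18.5 mutant replicate 1 (4.57 points, edgeR adjusted p = 0.0867), without the E18.5 wild-type replicate 1 (7.40 points, edgeR adjusted p = 0.0642) and without the E14.5 mutant replicate 2 (7.68 points, edgeR adjusted p = 0.0574). The Rlf downstream shore differed by 1.96 points (edgeR adjusted p = 0.439), from 0.43 without the E18.5 mutant replicate 1 to 2.76 without the E18.5 wild-type replicate 2. The upstream shores differed by 7.09 points at Rlf (edgeR adjusted p = 0.106) and 5.96 points at Zfp292 (edgeR adjusted p = 0.0932), where 45.5% of genes were called. The 7905 calls became 4807 without the E18.5 mutant replicate 1. The Rlf upstream shore passed without the E18.5 mutant replicate 2 (9.38 points, edgeR adjusted p = 0.0432), at a minimum of 1 read (9.11 points, edgeR adjusted p = 0.0314) and with the replicate block (edgeR adjusted p = 0.0303). The Zfp292 upstream shore gave 3.93 points without the E18.5 wild-type replicate 1. The Zfp292 start was higher in E14.5 liver than in E10.5 embryos, by 2.18 points (edgeR adjusted p = 0.000951, a direction called at 21.1% of starts), and lower again in E18.5 liver, by -2.32 points (edgeR adjusted p = 0.00907, called at 6.6% of starts, with 1316 such calls that became 573 without the E14.5 wild-type replicate 1). This start region joins windows from near 0% to 49.5% in wild-type embryos, so its pooled level also follows read depth. Averages over CpGs are not given for its tissue differences. The Rlf start differed by -0.48 and 0.30 points in these comparisons and passed neither. Measured over the whole gene span, island included, the bodies gave smaller or opposite tissue differences, which are given in the closing section. That pooled level also follows the share of reads that fall on the unmethylated island.

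Finally, methylation was followed in 1 kb tiles along each gene and 10 kb to either side, calling a tile where both mutants lay on one side of both wild types and the means differed by at least 10 points. At Rlf, 0 of 52 tiles were called higher in E10.5 embryos, 1 of 81 in E14.5 liver and 3 of 62 in E18.5 liver. At Zfp292 the counts were 2 of 71, 4 of 95 and 5 of 83, and 1 further tile was called lower in E18.5 liver. Over all tiles of the genome 2.94%, 3.41% and 6.35% were called higher and 0.756%, 0.553% and 1.29% lower, so the shares at the members were near the background. Median differences over the tiles in the 3 tissues were 0.73, 1.63 and 2.50 points at Rlf and 0.71, 1.89 and 2.41 points at Zfp292, against 1.02, 1.98 and 2.15 points in the genome.

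No tile was called in all 3 tissues, and 3 tiles were called higher in 2. These were 1 of 62 tiles at Rlf and 2 of 84 at Zfp292 that were measured in at least 2 tissues, where 0.821% of all such tiles of the genome were called, and counts this small are given as a description. At Zfp292, chr4:34838001-34839000, centred 8.29 kb upstream of the start with 21 CpGs in E10.5 embryos, had 52.7% and 61.8% in wild types against 68.6% and 69.0% in mutants there, and 49.3% and 54.9% against 65.5% and 68.9% in E18.5 liver. In E14.5 liver, where it was not called, it had 46.9% and 44.4% against 54.4% and 54.8%. The start of Cga, on the plus strand at chr4:34841028, lies closer to this tile than the start of Zfp292 does. The same holds for the next tile, chr4:34839001-34840000, which was called higher in E18.5 liver. Inside Zfp292, chr4:34795001-34796000 had 69.9% and 73.2% against 81.8% and 82.8% in E14.5 liver and 78.3% and 78.2% against 91.3% and 91.2% in E18.5 liver. In E10.5 embryos it had 93.8% and 95.6% against 94.4% and 93.3%, with a difference of -0.82 points. In the tissues where these 2 Zfp292 tiles were called, the mutants were closer to each other than to the wild types, which the calling rule favours. The Rlf tile, given next, did not show this. Past the 3′ end of Rlf, chr4:120811001-120812000 had 49.8% and 50.8% against 64.1% and 56.7% in E14.5 liver and 59.4% and 48.1% against 71.7% and 60.2% in E18.5 liver. In E10.5 embryos it had 73.4% and 78.3% against 70.7% and 80.2%, with a difference of -0.42 points. The tile chr4:34817001-34818000 in Zfp292 was higher in E14.5 mutants by 10.3 points and lower in E18.5 mutants by -15.0 points, over 6 and 5 CpGs.

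**Figure D4:**
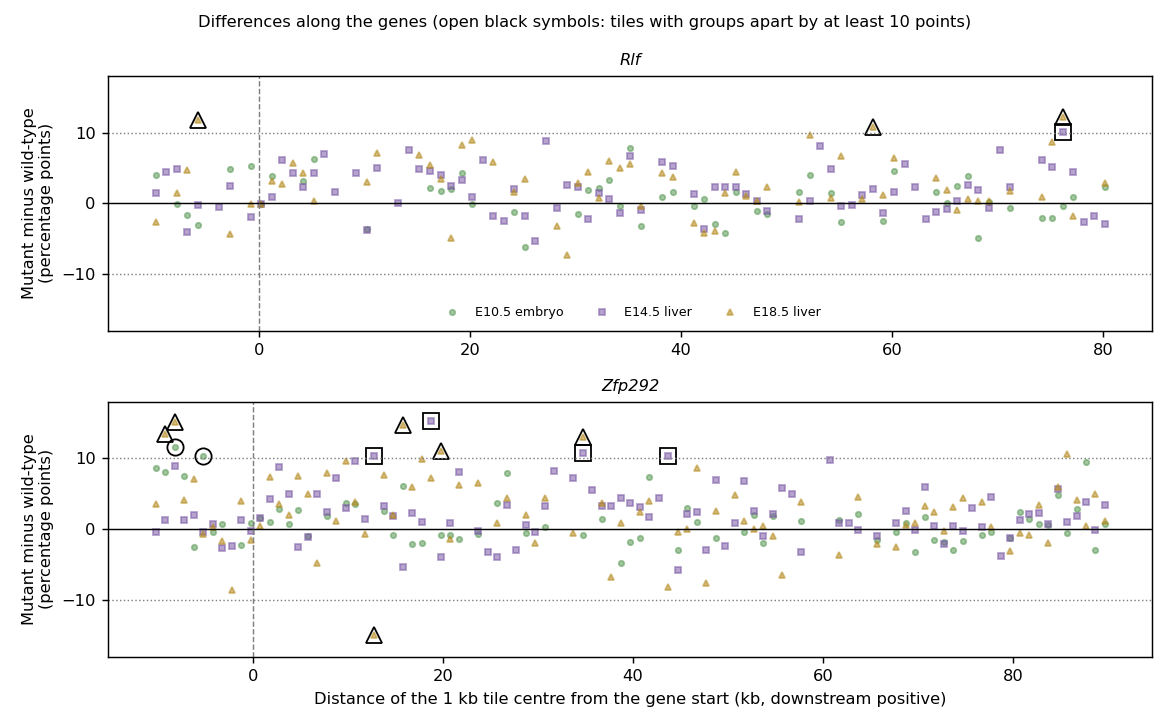
Mutant minus wild-type methylation (percentage points, vertical axis) of 1 kb tiles by distance from the start (kb, horizontal axis) along Rlf and Zfp292 in each tissue; the symbol marks the tissue, open black outlines mark called tiles and dotted lines mark 10 points. Called tiles are few, with 4 calls at Rlf and 11 higher and 1 lower at Zfp292 over the tissues, the 10 kb to either side included.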

How the data were processed

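Members and gene lists were chosen with earlier results of these data known. Per the labels and methods, the authors aligned bisulphite reads to mm9 with Bismark and Bowtie2 and deposited counts of methylated and unmethylated reads per CpG, with duplicates removed and strands merged. A percent per CpG, rounded by the authors from these counts, was deposited beside them and not used. For RNA-seq the authors used TopHat and HTSeq, and the deposited values are raw counts per gene. Deposited CpG positions count from 0; 1 was added, after which 96.5% of 1842 positions near the members were CG in NCBIM37. Both data types were tested with edgeR 4.0.16 (quasi-likelihood, R 4.3.3) over all genes with Benjamini-Hochberg adjustment: RNA with TMM and filterByExpr, methylation with an intercept per library, a level per tissue and a genotype effect, over regions of at least 5 CpGs. DESeq2 1.42.0 was the other tool for RNA. Region values were also compared by exact permutation. Regions, tiles and figures used python 3.11.15, numpy 2.4.6, pandas 2.3.3 and matplotlib 3.10.9. The tests were tested on simulated data. The rule for named genes took the members, Zfp654, any called partner or neighbour (none was), the nearest tested neighbours, and the 5 genes most like each member. Partners and neighbours with an unadjusted p under 0.05 were named after their values were seen. In RNA-seq, departures of same-numbered livers from their group mean correlated between the genotypes (r = 0.125, 0.226 and 0.409 over 14183 genes); this is read from the counts, and replicate 3 is the female of each genotype. Nothing beyond replicate numbers ties a sample to an animal in the labels, so p-values measure the spread between these samples. The paper describes the E14.5 livers used for WGBS as coming from littermates. Alternatives covered tool, normalization, filters, read minimum, averaging, region bounds, tile width and threshold, sex, replicate block, and leaving out each library. Intervals cover the fit's error only.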

Additional observations from a re-analysis of the deposited data

Results flagged for a closer look

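At the Zfp292 start, the genotypes parted in opposite directions in 2 tissues. Both mutants lay above both wild types in E10.5 embryos, by 1.0 percentage points, and both lay below in E18.5 liver, by -0.747 points, at levels of 2.58% to 4.05% in these 8 libraries. Over all starts, 34.5% had both mutants above in E10.5 embryos and 10.4% had both below in E18.5 liver. The edgeR test for a genotype difference that varied with tissue did not pass for this region (unadjusted p = 0.0693, adjusted p = 1), and the pairwise difference between these tissues was not tested by itself.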

How the results depend on the processing

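Zfp292 RNA passed the threshold with DESeq2 (log2 fold change 0.34, adjusted p = 0.0286), without the filter on low counts (0.35, edgeR adjusted p = 0.00866) and with the replicate block (0.34, edgeR adjusted p = 0.0303), and missed it with each library left out (0.28 to 0.38, edgeR adjusted p from 0.0546 to 0.216). Genes called by edgeR in all numbered 197, but 532 without the filter, 460 with the replicate block and 66 to 224 with each library left out. Among the latter were 66 without mutant replicate 1 and 94 without wild-type replicate 1. The number called by DESeq2 is not given. The methylation replicates were not taken as paired, since the correlations of their deviations in E10.5 embryos, E14.5 liver and E18.5 liver were 0.0672, 0.279 and -0.0518, and in E14.5 liver replicate number is also the sex label. With the replicate block, starts called higher in E14.5 liver went from 0 to 946 of 21081, and no genotype call of the members changed. It did bring the Rlf upstream shore, E18.5 against E14.5 liver, past the threshold (7.09 points, edgeR adjusted p = 0.0303).

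Averaging over CpGs in place of reads gave 0.15 points at the Rlf start and -0.10 at the Zfp292 start over the 3 tissues. The Zfp292 downstream shore gave 5.22 points at 10 reads and 5.10 to 8.07 with each library left out, and the Zfp292 body 0.906 to 2.87. Left-out ranges crossed 0 for the upstream shores over the tissues, from -1.48 to 3.42 at Rlf and from -1.18 to 1.53 at Zfp292. Within tissues they ran, at the Rlf upstream shore, from -4.63 to 5.10 in E14.5 liver, -8.75 to 1.22 in E18.5 liver and -0.33 to 14.4 in E10.5 embryos; at the Rlf start from -0.27 to 0.37 and -0.13 to 0.48 in the livers; at the Zfp292 upstream shore from -2.66 to 5.19 and -7.00 to 1.60; at the Zfp292 start in E14.5 liver from -0.15 to 1.15; and at the Zfp292 body in E18.5 liver from -0.30 to 5.78.

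With the start taken as 500 bp to either side, the Rlf start in E14.5 liver gave -0.056 points. With the body as the whole gene span, which adds the island, Rlf differed by 0.44 points between E14.5 liver and E10.5 embryos and by -1.43 between E18.5 and E14.5 liver, and Zfp292 by -2.06 (edgeR adjusted p = 0.112) and -3.35 (edgeR adjusted p = 0.0256). The first 500 bp of the genes were methylated at no more than 0.134% at Rlf and 0.113% at Zfp292 in any library. The whole-span level pools reads, so it also follows the share of reads on the island. The part of that share in these differences was not tested. A minimum of 1 read gave -0.36 points for the Rlf downstream shore between E18.5 and E14.5 liver.

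Over the genome and the 3 tissues, 4.22% of tiles were called higher, 3.88% at 10 reads, 0.835% at 15 points, 2.56% with 2 kb tiles and 4.2% to 7.51% with each library left out. The 4 tile calls at Rlf became 2 at 10 reads, 0 at 15 points, 2 with 2 kb tiles and 3 to 8 with each library left out. The 11 higher calls at Zfp292 became 2 at 15 points, 3 with 2 kb tiles and 10 to 22 with each library left out. The causes were not tested. With 2 libraries a group, 2421 of 17028 gene bodies were called higher in E10.5 embryos and 17 of 17130 in E18.5 liver, and a missed call of a member within a tissue does not show that it did not differ.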
